A study of Mus musculus with 12 samples.

Results

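Skin from mice that had an induced ageing of the skin and received the grape seed extract NSPCC1 was compared with control skin. The comparison used 8 of the 12 bulk RNA-seq libraries of the study, the 4 with M+NSPCC1 in their titles and the 4 with Ctrl in their titles. Per the study's design text, D-galactose, a simple sugar, and UVA/B irradiation aged the skin, and mice of the M+NSPCC1 group had both and the extract. The other 4 libraries, titled Model, had the model alone. They took part in the fit that set the spread behind the p-values. Their values appear below only beside those of M+NSPCC1. Ctrl and M+NSPCC1 skin therefore differed in the sugar, the light and the extract at once, and the shares of the 3 in a difference cannot be told apart in this comparison. The sources used here do not give strain, age, sex, body site, doses or treatment times. Whether 4 separate animals stand behind the 4 samples of a group is not stated, so p-values reflect only the spread among samples, which may be technical.

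Mouse skin is built of an epidermis that renews itself from a basal layer, hair follicles that pass through rounds of growth, regression and rest, a dermis of fibroblasts in collagen and elastic fibres, fat, vessels, nerves and a thin sheet of striated muscle. In a growing follicle, dividing matrix cells around the dermal papilla give rise to the hair shaft and the inner root sheath, and melanocytes pass pigment to the shaft. Skin exposed to ultraviolet light over long periods is known for altered collagen and elastic fibres, and D-galactose for oxidative stress and glycation, the bonding of sugars to proteins.

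The deposited estimated counts were summed by gene, which gave 7902 genes and 9717338 to 10708576 counts in the 8 libraries. These genes are a selection: the tables list 10720 transcripts, the sources used here do not give the rule behind the choice, and the values of a gene cover its listed transcripts only. Levels are given as CPM, counts relative to the TMM-scaled summed count of a library, and changes as log2 fold changes of M+NSPCC1 over Ctrl from the quasi-likelihood test of edgeR, adjusted by Benjamini-Hochberg over 7638 tested genes; 264 genes had too few counts. Genes passed at an adjusted p under 0.05, and "rose" and "fell" are kept for genes that passed. A single value beside a gene is its log2 fold change unless another unit is named. Gene positions are those of RefSeq on GRCm38.p6, the assembly known as mm10. The keratins Krt5 and Krt10, which mark the basal and suprabasal layers of the epidermis, were abundant in all 8 libraries (2330 to 2893 CPM and 3953 to 5781 CPM in Ctrl, 2752 to 4596 and 1363 to 2177 in M+NSPCC1). On the first principal component, which held 89.3% of the variance of these 8 libraries, Ctrl lay between -96.5 and -81.8 and M+NSPCC1 between 83.7 and 99.9. Within the groups 2 libraries stood apart. Ctrl 02 held traces of hair shaft and root sheath transcripts that were lower or at 0 in the other Ctrl libraries, and M+NSPCC1 01 was the library farthest from the mean of the other 3 in 3139 genes (41.1%), against 19.2% to 20.1% for each of the other M+NSPCC1 libraries. By this measure over all genes Ctrl 02 did not stand apart: Ctrl 01 was farthest in 29.5% of genes, Ctrl 03 in 27.1%, Ctrl 04 in 23.2% and Ctrl 02 in 20.2%.

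Nearly every listed gene differed between the groups. Of the tested genes 3826 rose (50.1%) and 3291 fell (43.1%), together 93.2%, and 521 did not pass. The 4 libraries of one group lay wholly above or below those of the other in 6872 genes (90.0%). The rises had a median log2 fold change of 0.93 and the falls of -1.48. More than 2-fold rises numbered 1763 and falls 2334, whereas beyond 64-fold there were 283 rises and 68 falls. Because so many of the selected genes passed, a list of genes is described below by its counts and its median, read against 50.1% higher, 43.1% lower and a median of 0.273 over all tested genes. With DESeq2's size factors that median was 0.115, and with the depth of the whole libraries it was 0.487.

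**Figure D1:**
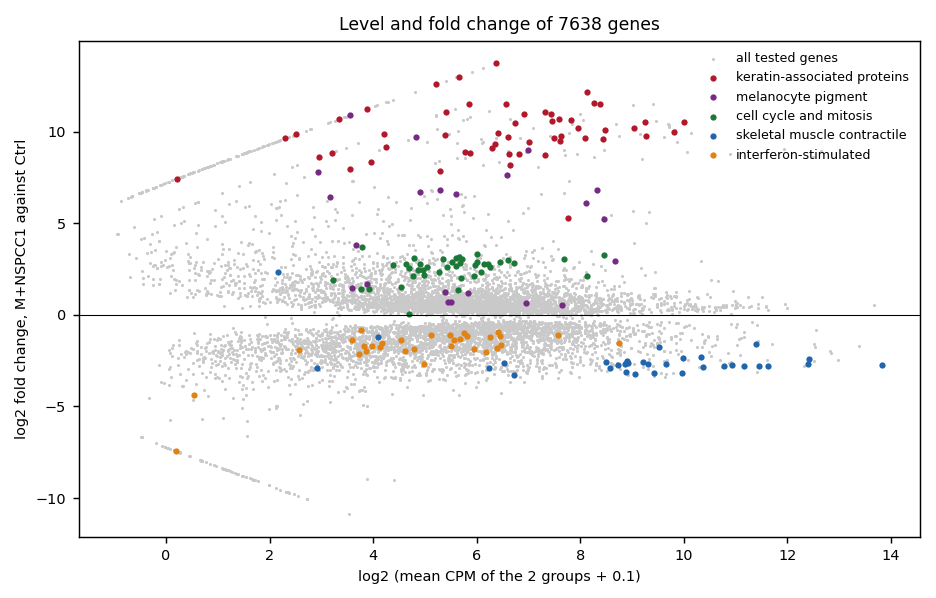
Log2 fold change of M+NSPCC1 over Ctrl (vertical axis) against the mean level of each gene (horizontal axis, log2 of CPM plus 0.1) for the 7638 tested genes, with the members of 5 lists in colour. Keratin-associated protein and pigment genes reach the top of the plot, and mitosis genes form a band near 2.70. Muscle genes lie near -2.69 at high levels. Of all tested genes 1763 rose and 2334 fell by more than 2-fold, and the median of all was 0.273.

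The 3 lists of hair genes had the highest medians of all 54 lists. All 17 tested keratins of the shaft and genes of its core rose (median 9.88), as did all 12 genes of the inner root sheath and the companion layer around it (median 8.86) and 52 of 53 keratin-associated proteins (median 9.84, or 9.77 with the 8 members that had no count in Ctrl set at their lower bound). Keratin-associated proteins cross-link the keratin filaments of the shaft. The 3 lists made up 0.0188% ± 0.00734, 0.0179% ± 0.01 and 0.00257% ± 0.00263 of the summed count in Ctrl and 3% ± 0.712, 3.29% ± 0.679 and 1.97% ± 0.492 in M+NSPCC1 (SD, n = 4 each). Ctrl 02 had the highest Ctrl share in each list (0.0296%, 0.03265% and 0.00647%). In the shaft list much of the Ctrl share was Selenbp1, with 124 to 167 CPM, and not hair keratins. In Ctrl 01, 03 and 04 together 45 of the 53 keratin-associated proteins had no count. Without Ctrl 02 the medians of the 3 lists were 12.13, 12.65 and 13.75, and without M+NSPCC1 01 they were 10.04, 9.02 and 10.03. Hair keratins and keratin-associated proteins are families of similar sequence, so the division of reads among their members is uncertain.

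Krt33b, an acidic keratin of the hair cortex (chromosome 11, 100023634 to 100029868), had 0, 1.44, 0 and 0 CPM in Ctrl 01 to 04 and 608, 1226, 1282 and 1013 CPM in M+NSPCC1 01 to 04. Every M+NSPCC1 library was far above every Ctrl library, and within its group M+NSPCC1 01 was the lowest. Its log2 fold change was 11.46 (SE 0.72; edgeR adjusted p = 1.89e-07), and 16.38 without Ctrl 02. Tchh, trichohyalin, which hardens the inner root sheath and the medulla (chromosome 3, 93442330 to 93449077), had 8.18, 96.6, 6.12 and 7.99 CPM in the Ctrl libraries and 7633, 12890, 13500 and 12210 in those of M+NSPCC1. Ctrl 02 was again the one Ctrl library with more than a trace, although it remained far below the lowest M+NSPCC1 library. The log2 fold change of Tchh was 8.60, and 10.60 without Ctrl 02. Padi3, the enzyme that converts arginines of trichohyalin to citrulline, rose by 8.61 (9.70 without Ctrl 02). Tgm6, a transglutaminase, had no count in Ctrl and 139 ± 29.3 CPM in M+NSPCC1 (SD, n = 4), at least 1697-fold higher when 3 counts are allowed over the Ctrl group.

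In the inner root sheath Krt71 (chromosome 15, 101733949 to 101743097) had 4.76, 100.5, 0.107 and 0.324 CPM in Ctrl and 8347, 13920, 14960 and 14030 in M+NSPCC1, and Krt25 had 2.21, 57.9, 0 and 0 against 5422, 8381, 8736 and 8750. Both keratins were abundant in all 4 M+NSPCC1 libraries, and Ctrl 02 was the highest control, followed by Ctrl 01. Their log2 fold changes were 8.92 and 9.03, and 12.86 and 13.37 without Ctrl 02. Krt75, a keratin of the companion layer, was present in all Ctrl libraries (31.5, 36.8, 33 and 47.9 CPM) and reached 798, 1336, 1411 and 1277 CPM in M+NSPCC1, a log2 fold change of 5.01 (SE 0.23). Selenbp1 had the smallest rise of the shaft list, 1.44, with 124 to 167 CPM in Ctrl and 249.6 to 487 CPM in M+NSPCC1.

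Keratin-associated protein genes lie in clusters, and the one on chromosome 16 held 4 of the largest rises among genes with counts in both groups. Krtap22-2 (chromosome 16, 89010380 to 89010759) had 0, 0.442, 0 and 0 CPM in Ctrl and 321, 607, 644 and 685 in M+NSPCC1. Krtap14 had 0, 0.773, 0 and 0 against 345, 754, 795 and 576, Krtap16-3 0, 0.884, 0 and 0 against 382, 753, 807 and 730.2 and Krtap19-5 0, 0.221, 0 and 0 against 111, 210.4, 216 and 225. All 4 genes had counts in Ctrl 02 alone among the controls, and M+NSPCC1 01 was the lowest of its group for each. Their log2 fold changes were 12.18, 11.57, 11.50 and 11.48, and 15.51, 15.64, 15.75 and 13.94 without Ctrl 02. Where the remaining controls hold no counts, such fitted values depend on how the model treats 0 and are not bounds. Krtap19-2, at 0 in every Ctrl library and 111 to 191 CPM in M+NSPCC1, was at least 2030-fold higher. Krtap3-2 was the member with the highest level in Ctrl (5.08 to 15.7 CPM) and had the smallest rise of the list, 5.30. The member that did not pass was Krtap20-2, at 0 in all Ctrl libraries and 0.917 to 4.73 CPM in M+NSPCC1, where Model skin had 2.94 to 231 CPM.

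The stretches of 150 bases before the RefSeq transcription start of these 4 chromosome 16 genes are shown because the genes rose together by more than 11.4 on the log2 scale (RefSeq, GRCm38.p6; 5′ to 3′ on the gene's strand; capitals mark the letters TATAAA, the core of a TATA box, on either strand).
Krtap22-2 (chr16:89010760-89010909, minus strand): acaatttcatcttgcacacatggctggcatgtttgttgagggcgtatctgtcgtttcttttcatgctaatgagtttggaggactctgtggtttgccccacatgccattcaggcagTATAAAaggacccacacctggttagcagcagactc
Krtap16-3 (chr16:88962874-88963023, minus strand): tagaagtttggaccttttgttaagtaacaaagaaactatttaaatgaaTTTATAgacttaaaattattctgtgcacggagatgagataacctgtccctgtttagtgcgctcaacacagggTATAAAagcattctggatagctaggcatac
Krtap19-5 (chr16:88896450-88896599, minus strand): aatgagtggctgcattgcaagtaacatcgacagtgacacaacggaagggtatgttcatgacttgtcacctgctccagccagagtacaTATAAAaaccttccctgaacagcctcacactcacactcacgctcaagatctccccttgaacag
Krtap14 (chr16:88826146-88826295, minus strand): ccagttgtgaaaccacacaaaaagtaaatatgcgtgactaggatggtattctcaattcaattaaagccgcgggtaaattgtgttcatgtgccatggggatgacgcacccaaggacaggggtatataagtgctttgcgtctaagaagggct
The window of Krtap14 holds no match to these letters. Over the windows of 300 bases around the start, TATAAA was found on either strand in 39 of 48 windows of keratin-associated proteins (81.2%), in 9.02% of the windows of all tested genes and in 13.6% of the 32851 windows of the table. A match is a string of letters and not evidence of a bound factor.

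Regulators of the follicle changed with the structural genes, by smaller amounts. Of 34 tested matrix and follicle regulators 29 rose and 5 fell (median 2.22). Shh, the signal that matrix cells send to their neighbours (chromosome 5, 28456840 to 28467101), had 0.442, 1.22, 0.644 and 0.432 CPM in Ctrl and 54.8, 59.3, 61.1 and 74.1 CPM in M+NSPCC1. The groups did not overlap, and the lowest M+NSPCC1 library was far above Ctrl 02, the highest control. The log2 fold change of Shh was 6.49 (SE 0.26; edgeR adjusted p = 2.99e-08). Lef1, the transcription factor through which Wnt signals act in the matrix, rose from 5.86, 7.07, 3.22 and 5.18 to 141, 200.4, 203 and 211 CPM, with M+NSPCC1 01 below the other 3. Its log2 fold change was 5.14. The transcription factors Hoxc13, Foxn1 and Msx2, which switch on hair keratins or shape the matrix, rose by 5.81, 5.50 and 6.59, and Vdr, the vitamin D receptor needed for hair cycling, by 2.66 (SE 0.12).

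Genes of follicle stem cells went both ways. Sox9 and Lgr5, transcription factor and receptor of follicle stem and progenitor cells, rose by 1.83 and 2.16. Nfatc1, a transcription factor of resting stem cells, had 85.7, 82.3, 89.6 and 90.6 CPM in Ctrl and 33.6, 28.1, 20.6 and 20.1 in M+NSPCC1, and Cd34, a surface protein of the same cells and of vessels and fibroblasts, 986, 1018, 960.2 and 987 against 277, 398, 295 and 264. Both fell in every M+NSPCC1 library, with log2 fold changes of -1.77 and -1.68. Fgf18, a growth factor of resting follicles, fell by 2.45 on the log2 scale, while Fgf5, a growth factor made by growing follicles that ends their growth, rose by 5.91 (0.111 to 0.331 CPM in Ctrl, 8.25 to 17.1 CPM in M+NSPCC1). In the dermal papilla, the cluster of fibroblasts that instructs the matrix, 6 of 7 tested genes rose and 1 fell (median 1.73). The protease Corin and the hedgehog-binding protein Hhip rose by 4.95 and 3.14, Vcan, the proteoglycan versican, by 0.98, and Crabp1, a retinoic acid carrier, fell by 0.82.

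All 22 tested pigment genes rose (median 5.68, or 2.73 with limma on log2(FPKM + 1), where the added 1 lowers the change of low genes), and their share of the counts was 0.0496% ± 0.00271 in Ctrl and 0.429% ± 0.0668 in M+NSPCC1 (SD, n = 4 each). Tyr, tyrosinase, which carries out the first step from tyrosine to melanin (chromosome 7, 87424771 to 87493512), had 1.77, 1.22, 0.107 and 0.648 CPM in Ctrl and 145, 193, 205 and 217 in M+NSPCC1. Ctrl 03 was the lowest control, and every control was far below M+NSPCC1 01, the lowest treated library. Tyr had a log2 fold change of 7.66 (SE 0.49; edgeR adjusted p = 1.93e-07). Tyrp1 and Dct, later enzymes of the same path, rose by 6.12 and 5.24, and Pmel, the fibril on which melanin is laid down, by 6.81. Genes that pigment cells share with other cells had lower values: Kit, a receptor also of mast cells, rose by 1.19, and Myo5a, a motor that carries pigment granules, by 0.52 with groups that overlapped (208, 140.5, 173 and 137 CPM in Ctrl, 196, 258, 248 and 244 in M+NSPCC1). In bulk skin a change in the number of pigment cells and a change in RNA per cell cannot be told apart, and the same holds for every cell type below.

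**Figure D2:**
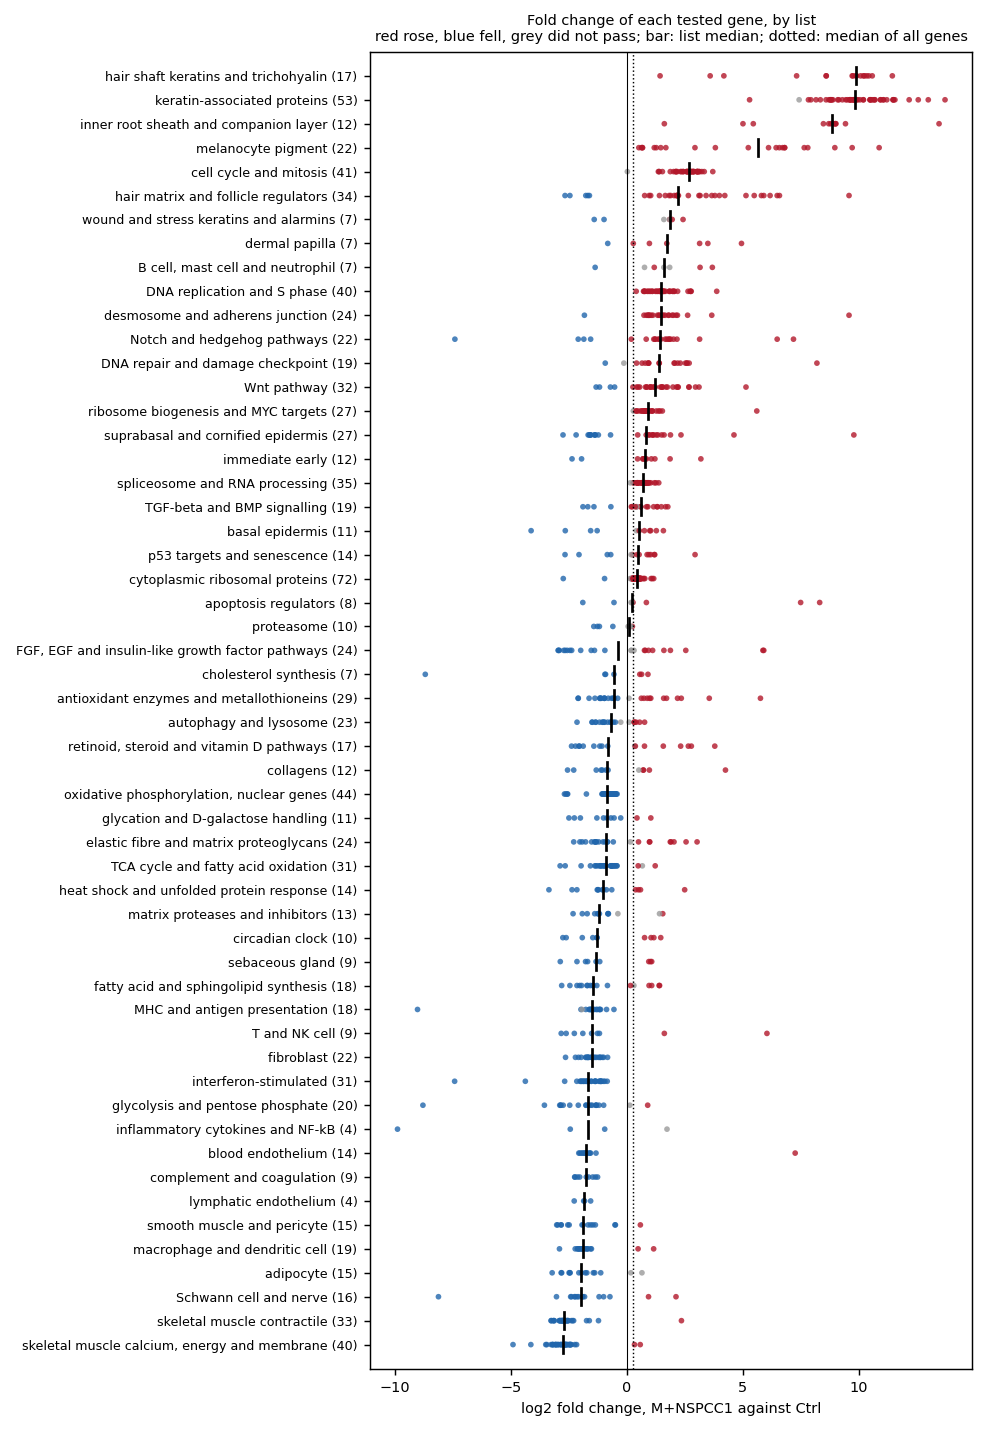
Log2 fold change of M+NSPCC1 over Ctrl (horizontal axis) for each tested gene of 54 lists (rows, number tested in brackets), with points coloured by call, a bar at each list's median and a dotted line at the median of all tested genes. The bars of the hair shaft, root sheath, keratin-associated and pigment lists lie furthest to the right, at 5.68 to 9.88, and those of the 2 skeletal muscle lists furthest to the left, at -2.69 and -2.73; single genes of other lists reach lower values.

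Genes of cell division rose together. Of 41 tested genes of the cell cycle and mitosis 39 rose, 0 fell and 2 did not pass (median 2.70), and their share of the counts was 0.0671% ± 0.00972 in Ctrl and 0.466% ± 0.0348 in M+NSPCC1 (SD, n = 4 each). Mki67, the nuclear protein of dividing cells (chromosome 7, 135689784 to 135716450), had 72.5, 63.6, 74.3 and 57.9 CPM in Ctrl and 590.4, 616, 636 and 694 in M+NSPCC1. The lowest treated library was several times above the highest control. Mki67 had a log2 fold change of 3.24 (SE 0.23; edgeR adjusted p = 3.73e-07). Ccnb1, the cyclin that drives entry into mitosis, had 25.9, 14.7, 24.3 and 16.8 CPM against 136, 146, 157 and 175, and Top2a, the enzyme that untangles chromosomes, rose by 3.05. Cdc20, which starts the separation of sister chromatids, rose by 2.75, and Ccnd1, the cyclin of the first growth phase, by 2.13. The 2 genes that did not pass were E2f1, a transcription factor of S phase (26.1, 26.4, 26.1 and 24.2 CPM in Ctrl, 24.2, 27.2, 28.1 and 25.3 in M+NSPCC1), and Kif23, a motor of the dividing midbody (10.2, 8.17, 7.51 and 7.02 against 39, 12, 29.3 and 7.28). Kif23 varied within M+NSPCC1 from near the control level to several times above it, and E2f1 is a gene whose listed transcripts were called in opposite directions.

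All 40 tested genes of DNA replication rose, by less (median 1.49). Mcm5, part of the helicase that opens the double strand, had 28.1, 37.5, 32.4 and 34.9 CPM in Ctrl and 133, 132, 142 and 148 in M+NSPCC1, a log2 fold change of 2.06 (SE 0.13). Tk1, which salvages thymidine, rose by 2.78, and Pcna, the sliding clamp, by 0.98. Of 19 repair and checkpoint genes 17 rose, 1 fell and 1 did not pass (median 1.40). Brca1, which helps to mend double strand breaks by recombination, rose by 2.69. The fall was that of Ogg1, the glycosylase that removes oxidised guanine, with 2.79 to 4.09 CPM in Ctrl and 1.48 to 2.13 CPM in M+NSPCC1 (-0.93; edgeR adjusted p = 0.0135).

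Targets of p53 and genes of senescence were mixed: 9 rose, 4 fell and 1 did not pass of 14 (median 0.49). Cdkn1a, which encodes p21, an inhibitor of the cell cycle (chromosome 17, 29090979 to 29100722), had 329, 342, 331 and 409.5 CPM in Ctrl and 459, 457, 501 and 500.3 in M+NSPCC1. Ctrl 04 lay above the other controls, and all M+NSPCC1 libraries lay above Ctrl 04. The log2 fold change was 0.44 (SE 0.08; edgeR adjusted p = 0.000411), and its 2 listed transcripts were called in opposite directions. Trp53, p53 itself, rose by 1.03, and Lmnb1, the lamin whose loss marks senescent cells, by 2.95. Ccng1 and Phlda3, which p53 induces, fell by 2.06 and 0.84. Ccng1 had 688 to 716 CPM in Ctrl and 149 to 198 CPM in M+NSPCC1.

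Stretches before the start of Mki67, Ccnb1 and Cdc20 are shown because most windows of the mitosis list hold the letters marked (RefSeq, GRCm38.p6; 200 bases for Mki67 and 150 for the other two, 5′ to 3′ on the gene's strand). For Mki67 the start of this RefSeq window lies inside the gene span given above, so that the stretch overlaps the span. Capitals mark CCAAT and the CHR letters TTTGAA or TTTAAA, the 2 elements known from promoters of genes that peak in late cell cycle, on either strand.
Mki67 (chr7:135716380-135716579, minus strand): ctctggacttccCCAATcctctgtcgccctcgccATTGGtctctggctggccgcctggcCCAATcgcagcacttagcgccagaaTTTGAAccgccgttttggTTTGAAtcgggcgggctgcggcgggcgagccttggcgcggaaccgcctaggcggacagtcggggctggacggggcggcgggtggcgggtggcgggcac
Ccnb1 (chr13:100786487-100786636, minus strand): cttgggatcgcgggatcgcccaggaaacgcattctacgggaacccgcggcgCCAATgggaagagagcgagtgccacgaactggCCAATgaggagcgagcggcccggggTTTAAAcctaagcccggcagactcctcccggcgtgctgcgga
Cdc20 (chr4:118437344-118437493, minus strand): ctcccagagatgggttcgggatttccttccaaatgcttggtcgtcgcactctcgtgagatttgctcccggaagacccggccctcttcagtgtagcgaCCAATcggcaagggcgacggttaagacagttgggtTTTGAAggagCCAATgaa
The CHR letters were present in 30 of 36 windows of 300 bases of the mitosis list (83.3%, for 33 of its 41 genes), in 21% of the windows of all tested genes and in 27.6% of all windows of the table. CCAAT was present in 28 of the 36 (77.8%), against 37.2% and 37.4%. For the replication list the E2F letters TTTCCCGC, TTTGGCGC, TTTCGCGC or TTTGCCGC were present in 14 of 41 windows (34.1%), against 3.59% and 2.26%. These counts describe letters in fixed windows on both strands.

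The machinery of growth rose by small amounts in nearly all members. Of 27 genes of ribosome biogenesis 26 rose (median 0.90), of 35 spliceosome genes 34 (median 0.69) and of 72 cytoplasmic ribosomal proteins 67, with 2 falls (median 0.44). With DESeq2's size factors the ribosomal median was 0.277 and 48 of the 72 passed. The median of all tested genes was 0.273 with TMM factors and 0.115 with DESeq2's size factors, so the size of these small rises depends on the scaling. Mycn, a MYC family transcription factor, had 2.43, 2.54, 0.966 and 2.7 CPM in Ctrl and 83.4, 110.2, 116 and 114 in M+NSPCC1 (5.61), while its relative Myc rose by 0.70 (43.6 to 55.8 CPM in Ctrl, 71.7 to 101 CPM in M+NSPCC1). Srsf1, a splicing factor, had 193, 185, 212 and 226 CPM against 454, 544, 568 and 556, with no overlap and a log2 fold change of 1.38. Npm1, nucleophosmin of the nucleolus, rose by 1.27, and Rpl3, a core ribosomal protein, by 0.74. The 2 ribosomal proteins that fell were Rpl3l, a form of Rpl3 that striated muscle makes (282 to 348 CPM in Ctrl, 37.1 to 50.6 CPM in M+NSPCC1, -2.74), and Rpl39l (-0.96). Of 10 tested proteasome genes 1 rose, 4 fell and 5 did not pass (median 0.08, or -0.075 with DESeq2's size factors), and 2 of the falls were the immunoproteasome subunits Psmb9 (-1.18) and Psmb10 (-1.42).

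Epidermal genes differed in both directions, as did all tested genes. Of 11 tested basal genes 6 rose and 4 fell (median 0.54), close to the 50.1% higher and 43.1% lower of all tested genes. Trp63, the transcription factor that maintains basal keratinocytes (chromosome 16, 25683763 to 25892088), had 172, 137, 137 and 134 CPM in Ctrl and 478, 383, 443 and 428 in M+NSPCC1, with no overlap and a log2 fold change of 1.58 (SE 0.11; edgeR adjusted p = 2.67e-07). Krt5 did not pass (2852, 2330, 2490 and 2893 CPM against 4596, 2752, 3326 and 3428, 0.42, edgeR adjusted p = 0.062; 0.52 and 0.0321 without M+NSPCC1 02), and the highest Ctrl library overlapped the lowest of M+NSPCC1. Igfbp3, a binding protein for insulin-like growth factors in the basal list, fell by 2.65 (542 to 756 CPM in Ctrl, 86.6 to 122 CPM in M+NSPCC1).

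Of 27 suprabasal and cornified layer genes 15 rose and 12 fell (median 0.84), a split also close to that of all tested genes. Their share of the counts went the other way than the median. It was 1.62% ± 0.22 in Ctrl and 1.04% ± 0.143 in M+NSPCC1 (SD, n = 4 each), without overlap. Krt10 (chromosome 11, 99385254 to 99397449) had 5673, 4577, 3953 and 5781 CPM in Ctrl and 2177, 1548, 1363 and 1549 in M+NSPCC1. Each M+NSPCC1 library was below the lowest control, and M+NSPCC1 01 was the highest of its group. Krt10 had a log2 fold change of -1.59 (SE 0.27; edgeR adjusted p = 0.000207), and Krt77, a further suprabasal keratin, fell by 2.18. Flg, the precursor of filaggrin that bundles keratin in the cornified layer (chromosome 3, 93273546 to 93293689), had 328, 222, 216 and 241 CPM in Ctrl and 696, 459, 399 and 634 in M+NSPCC1. All 4 M+NSPCC1 libraries were above Ctrl 01, the highest control, and the log2 fold change was 1.12 (SE 0.21; edgeR adjusted p = 0.000386). Tgm1 and Tgm3, transglutaminases that seal the cornified envelope and, for Tgm3, the hair shaft, rose by 1.61 and 4.63. Krt2, the keratin of the upper spinous layer, was at 0 in every Ctrl library and 7.33 to 13.6 CPM in M+NSPCC1, at least 133-fold higher for its 1 listed transcript.

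Junctions between epithelial cells and glands differed. Of 24 desmosome and adherens junction genes 23 rose (median 1.47), and their share of the counts went from 0.624% ± 0.0635 to 1.64% ± 0.0718 (SD, n = 4 each). Cdh3, P-cadherin of basal and matrix cells, had 22, 22, 22 and 23.9 CPM in Ctrl and 303, 264, 269 and 306 in M+NSPCC1, a log2 fold change of 3.67 with SE 0.14. The controls lay close together, far below every treated library. Dsg4, the desmoglein of the hair shaft, rose by 9.59, and Tjp3, a tight junction scaffold, was the member that fell (-1.83). Of 9 sebaceous gland genes 3 rose and 6 fell (median -1.32). Scd1 and Scd3, desaturases of sebum and fat, fell by 1.69 and 2.87, and Fabp5, a fatty acid carrier of keratinocytes, rose by 0.95.

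Keratins and alarmins of wounded skin rested partly on one library. Krt17, which wounded epidermis and hair follicles make, had 677, 663, 801 and 670.5 CPM in Ctrl and 3091, 2055, 2505 and 2467 in M+NSPCC1 (1.85), and Tgfa, a growth factor of keratinocytes, rose by 1.96. The alarmins S100a8 and S100a9, made by neutrophils and stressed keratinocytes, had 4.09, 4.2, 26.4 and 9.61 CPM and 5.31, 8.28, 32 and 11.7 CPM in Ctrl, and 118, 15.8, 5.19 and 21.1 and 142, 10.6, 3.73 and 17.3 in M+NSPCC1. M+NSPCC1 01 was far above all other libraries, Ctrl 03 was the highest control, and the groups overlapped. Neither gene passed (edgeR adjusted p = 0.0797 and 0.149), although S100a8 passed without Ctrl 03 (2.75, adjusted p = 0.029) or without M+NSPCC1 03 (2.22, adjusted p = 0.0356). The list had 3 rises and 2 falls among 7 tested genes, and its median of 1.85 was 0.35 without M+NSPCC1 01.

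Most genes of the dermis were lower. All 22 tested fibroblast genes fell (median -1.52), and their share of the counts was 2.42% ± 0.247 in Ctrl and 0.866% ± 0.132 in M+NSPCC1 (SD, n = 4 each). Sfrp4, a secreted Wnt inhibitor, and Dpp4, a protease of upper dermal fibroblasts, fell by 2.64 and 1.43, and the small proteoglycans Dcn (decorin) and Lum (lumican) by 1.14 and 0.83. Of 12 collagen genes that could be tested, out of 30 listed, 4 rose and 7 fell (median -0.85); Col1a1 was not analysed here. Col3a1, the collagen of fine and young fibrils (chromosome 1, 45311538 to 45349706), had 7590, 7645, 8726 and 6658 CPM in Ctrl and 4675, 4672, 4498 and 3651 in M+NSPCC1. The groups did not overlap, and the difference was under 2-fold, with a log2 fold change of -0.81 (SE 0.24; edgeR adjusted p = 0.00668). Col5a1, which sets fibril width, fell by 0.90 and Col28a1, a collagen found around nerves, by 2.55. Col11a1, a minor fibril collagen known from cartilage, rose from 8.29, 11.7, 4.29 and 6.26 CPM to 153, 144, 149 and 139 CPM (4.26), and Col12a1, which sits on fibril surfaces, rose by 0.72.

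Among genes of elastic fibres and proteoglycans 8 rose and 15 fell of 24 (median -0.89). Eln, elastin (chromosome 5, 134702595 to 134747368), had 780.3, 703, 519 and 607 CPM in Ctrl and 157, 115, 117 and 146 in M+NSPCC1. Every treated library was far below Ctrl 03, the lowest control, and the log2 fold change was -2.29 (SE 0.28; edgeR adjusted p = 1.68e-05). Fbn1, the fibrillin that scaffolds elastin, fell by 1.51, whereas Fbn2, the fibrillin of developing tissue, rose by 2.56 (2.54 to 5.9 CPM in Ctrl, 18.6 to 34.5 CPM in M+NSPCC1). The hyaluronan enzymes Has3, a synthase, and Cemip, which drives its breakdown, rose by 1.91 and 3.03. Tnc, tenascin C of remodelling matrix, had 46, 39, 111 and 25.9 CPM in Ctrl and 436, 139, 165 and 171 in M+NSPCC1, highest in M+NSPCC1 01, with a log2 fold change of 2.04 (2.62 without Ctrl 03). Bgn, the proteoglycan biglycan, did not pass (0.15).

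Of 13 tested matrix proteases and inhibitors 10 fell and 1 rose (median -1.18). Mmp9, a gelatinase (chromosome 2, 164940326 to 164955850), had 30.3, 44.4, 65.7 and 46.6 CPM in Ctrl and 14.2, 10.8, 6.47 and 6.04 in M+NSPCC1. All 4 M+NSPCC1 libraries were below Ctrl 01, the lowest control, and the log2 fold change was -2.31 (SE 0.51; edgeR adjusted p = 0.00118). The inhibitors Timp2 and Timp4 fell as well, by 1.38 and 1.92, and the metalloprotease Adam12 was the member that rose (1.55).

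Fat, vessel and nerve genes were lower. Of 15 adipocyte genes 13 fell and 2 did not pass (median -1.96). Fasn, fatty acid synthase (chromosome 11, 120805958 to 120825166), had 8237, 10130, 8207 and 9307 CPM in Ctrl and 1256, 1215, 1418 and 1244 in M+NSPCC1, a log2 fold change of -2.81 (SE 0.23; edgeR adjusted p = 8.93e-07). The M+NSPCC1 libraries lay close together, several times below the controls. Acaca, which makes the substrate of Fasn, fell by 2.45 (SE 0.13), Thrsp, a regulator of fat synthesis, by 3.22, and Slc2a4, the glucose transporter of fat and muscle that insulin controls, by 2.49. Of 14 endothelial genes 13 fell (median -1.74). Pecam1, the adhesion molecule of endothelium (chromosome 11, 106654213 to 106715281), had 215, 251, 217 and 226 CPM against 72.1, 64.9, 64.1 and 53.9, with no overlap (-1.83, SE 0.28). Cdh5 and Kdr, the cadherin and a growth factor receptor of vessels, fell by 2.02 and 1.59. Erg, an endothelial transcription factor, was the exception: its 1 listed transcript had no count in Ctrl and 1.28 to 3.19 CPM in M+NSPCC1, at least 22.9-fold higher. All 4 lymphatic genes fell (median -1.84), Lyve1, a hyaluronan receptor, by 1.82.

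Of 16 Schwann cell and nerve genes 14 fell and 2 rose (median -1.99). Mbp, myelin basic protein, had 385, 443, 406 and 348 CPM in Ctrl and 111, 80.2, 66 and 74.7 in M+NSPCC1. The highest treated library, M+NSPCC1 01, was far below Ctrl 04, the lowest control, and the log2 fold change was -2.25 (SE 0.23; edgeR adjusted p = 4.78e-06). The 2 that rose were Erbb3, a receptor that Schwann cells share with epithelium (0.94), and Fabp7, which stayed low (0.429 to 0.774 CPM in Ctrl, 1.93 to 4.01 CPM in M+NSPCC1). Among smooth muscle and pericyte genes 14 of 15 fell (median -1.88); Acta2, smooth muscle actin, had 179.8, 230.2, 236 and 264 CPM against 179, 163, 147 and 151, a small fall of 0.51 that limma did not call on log2(FPKM + 1), and Des, desmin of all muscle types, fell by 2.83.

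The 2 skeletal muscle lists had the lowest medians of all 54 lists. Of 33 contractile genes 32 fell (median -2.69), as did 38 of 40 genes of calcium handling, energy supply and the muscle membrane (median -2.73). Their shares of the counts were 8.4% ± 0.0564 and 4.25% ± 0.253 in Ctrl and 1.56% ± 0.311 and 0.846% ± 0.169 in M+NSPCC1 (SD, n = 4 each). Acta1, skeletal actin (chromosome 8, 123891758 to 123894775), had 25080, 24240, 26640 and 25850 CPM in Ctrl and 4421, 4219, 3052 and 3308 in M+NSPCC1, a log2 fold change of -2.76 (SE 0.33; edgeR adjusted p = 1.47e-05). Every treated library was several times below the lowest control, Ctrl 02. Ttn, the giant spring of the sarcomere, had 2591, 2349, 2049 and 2379 CPM against 410.2, 321, 236 and 329.5 (-2.85), and Myh4, the myosin of fast glycolytic fibres, fell by 2.39. Ckm, muscle creatine kinase, and Ryr1, the calcium release channel, fell by 2.54 and 2.65. The transcription factors Myog (26.4, 22, 20.9 and 38.8 CPM against 1.65, 0.742, 0.729 and 0.444) and Myod1 (16.9 to 25.1 CPM against 0.533 to 1.82), which commit cells to muscle, fell further, by 4.91 and 4.14. The contractile gene that rose was Tnni1, a troponin of slow fibres at a low level (0 to 2.32 CPM in Ctrl, 6.51 to 8.93 CPM in M+NSPCC1), and the other 2 rises were Atp2a2, a calcium pump that many tissues make (0.34, or 0.177 and not passing with DESeq2's size factors), and Dmd (0.58), whose listed transcripts were called in opposite directions.

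**Figure D3:**
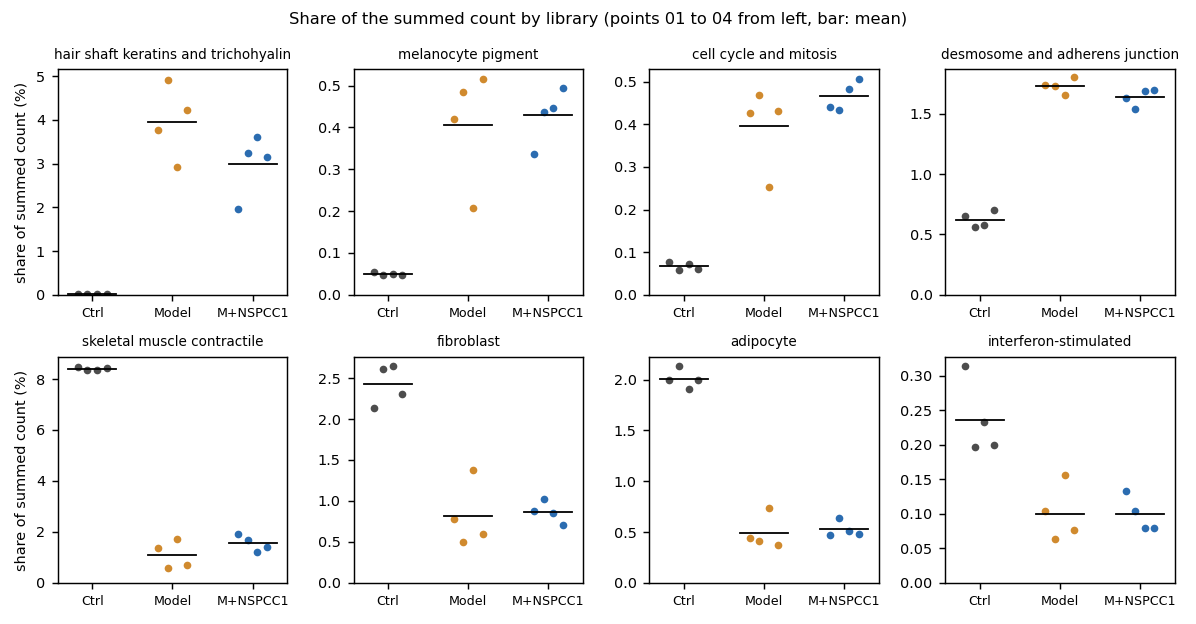
Share of the summed count (vertical axis, percent) taken by 8 gene lists in each of the 12 libraries, with points for libraries 01 to 04 from the left and a bar at the group mean. Skeletal muscle contractile genes hold 8.40% in Ctrl and 1.56% in M+NSPCC1, while the junction genes go from 0.62% to 1.64%; M+NSPCC1 01 is the lowest of its group for hair shaft genes.

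Immune genes were lower with few exceptions. Of 19 macrophage and dendritic cell genes 17 fell (median -1.89), and C1qa, a complement chain that tissue macrophages make (chromosome 4, 136895916 to 136898844), had 884, 571, 696 and 601 CPM in Ctrl and 162, 239, 152 and 122 in M+NSPCC1. Ctrl 01 was the highest control and M+NSPCC1 02 the highest treated library, without overlap, and the log2 fold change was -2.03 (SE 0.28). Lyz2, lysozyme of macrophages, fell by 2.22 and Adgre1, the F4/80 antigen, by 2.02. Of the 2 that rose, Epcam, which Langerhans cells share with epithelium, had 1.16. Of 18 genes of antigen presentation 17 fell and 1, Ciita, did not pass (median -1.48). Cd74, the invariant chain of class II, had 2414, 2675, 2133 and 2154 CPM against 924, 729.5, 757 and 638, with no overlap (-1.62; edgeR adjusted p = 0.00102). H2-Ab1, a class II chain, and B2m, the light chain of class I, fell by 1.61 and 1.13, and class I and class II genes have near copies among which reads may be divided.

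All 31 tested genes that interferons induce fell (median -1.65). Oas2, which senses double-stranded RNA (chromosome 5, 120730333 to 120749886), had 93.1, 53.8, 31.1 and 41.3 CPM in Ctrl and 10.9, 10.9, 2.92 and 9.5 in M+NSPCC1. Each treated library lay below the lowest control, and the log2 fold change was -2.68 (SE 0.47; edgeR adjusted p = 0.000228). All 9 complement and coagulation genes fell (median -1.75), among them C3, the central component (1392, 1913, 2611 and 1653 CPM against 481, 804, 496 and 476, -1.75). Of 37 cytokine and NF-kB genes listed, 4 could be tested, of which 3 fell and 1 did not pass. Il1rl1, the receptor for interleukin 33, had 21.2, 11.4, 10.4 and 3.24 CPM in Ctrl and no count in M+NSPCC1, at least 169-fold lower, and the chemokine Cxcl2 did not pass (0.332, 1.32, 1.29 and 2.05 CPM against 11.9, 1.76, 0.273 and 2.84). T and NK cell genes were sparse (9 of 32 tested, 2 higher and 7 lower, from -2.83 to 6.05). Their share of the counts was 0.03521% in Ctrl and 0.03515% in M+NSPCC1. Ptprc, the leukocyte antigen CD45, fell by 1.89. Jchain, which joins antibodies of plasma cells, rose by 3.69 (0.322 to 0.994 CPM in Ctrl, 3.48 to 10.4 CPM in M+NSPCC1). Its list, of B cells, mast cells and neutrophils, had 3 rises, 1 fall and 3 genes that did not pass, and its median of 1.60 was 0.52 without M+NSPCC1 01 and 2.37 without Ctrl 03.

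Genes of energy metabolism were lower. Each of the 44 tested oxidative phosphorylation genes encoded in the nucleus fell (median -0.85), together with 28 of 31 genes of the citric acid cycle and fatty acid oxidation (median -0.90) and 18 of 20 of glycolysis (median -1.69). Sdha of complex II had 794, 927, 888 and 839 CPM in Ctrl and 422, 432, 421 and 427 in M+NSPCC1, a log2 fold change of -1.02 (SE 0.07), and Ndufs1 of complex I fell by 0.90. The deepest falls were those of Cox6a2 (-2.69) and Cox7a1 (-2.57), subunits that heart and skeletal muscle use, and Atp5b of the ATP synthase fell least (-0.42). Cpt1b, the muscle form of the enzyme that admits fatty acids to mitochondria, fell by 2.65, while Cpt1a, the form of most other tissues, had 69.1, 105, 129 and 67.5 CPM against 198, 213, 196 and 262 and rose (1.23). In glycolysis Gapdh had 8674, 9433, 9239 and 9206 CPM in Ctrl and 3087, 2852, 2331 and 2595 in M+NSPCC1 (-1.75), and Pkm fell by 2.84, while Aldoc, the aldolase form known from brain, rose by 0.90. The share of muscle contractile genes fell from 8.40% to 1.56% in the same libraries, and its part in these values was not tested. Fatty acid and sphingolipid genes had 12 falls and 5 rises among 18 (median -1.46), and cholesterol synthesis 4 and 3 among 7.

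**Figure D4:**
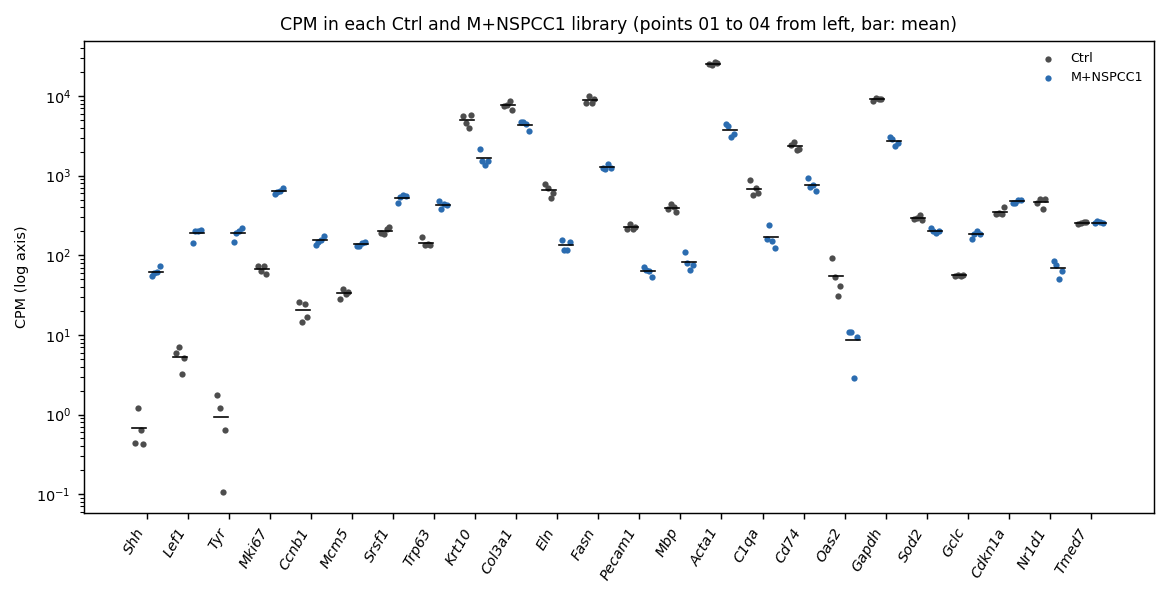
CPM (vertical log axis) of 24 named genes in each Ctrl and M+NSPCC1 library, with points for libraries 01 to 04 from the left and a bar at the mean. The groups do not overlap for 23 of the genes; for Tmed7 all 8 libraries lie between 249.6 and 266 CPM.

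Antioxidant genes differed in both directions. Of 29 tested 11 rose and 17 fell (median -0.55). Sod2, the superoxide dismutase of mitochondria (chromosome 17, 13007839 to 13018119), had 285, 296, 319.8 and 280.1 CPM in Ctrl and 220.5, 203, 191 and 201 in M+NSPCC1. The groups did not overlap, and the difference was under 2-fold, -0.54 on the log2 scale (SE 0.09; edgeR adjusted p = 0.000213). The cytosolic and secreted dismutases Sod1 and Sod3 fell by 0.96 and 2.09, the mitochondrial peroxiredoxin Prdx3 by 1.10, and the secreted peroxidase Gpx3 by 2.10. Gpx3 had 3953, 2644, 2694 and 2731 CPM in Ctrl and 422, 1466, 388 and 534 in M+NSPCC1, and its value was -2.74 without M+NSPCC1 02, the highest treated library. Gclc, the catalytic subunit of the first step of glutathione synthesis (chromosome 9, 77754535 to 77794489), had 54.8, 56.5, 54.5 and 57.3 CPM in Ctrl and 162, 184, 201 and 187 in M+NSPCC1, with a log2 fold change of 1.72 (SE 0.12; edgeR adjusted p = 3.71e-07). Its partner subunit Gclm rose by 1.04, and Slc7a11, which imports cystine, by 5.77 (2.43, 0, 0 and 0 CPM in Ctrl, 34.6, 30.5, 34.1 and 34.5 in M+NSPCC1), or by 11.43 without Ctrl 01, the control with counts. The metallothioneins Mt2 and Mt4, which bind zinc and copper, rose by 2.19 and 3.56, and Txn1, thioredoxin, did not pass (0.10).

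Enzymes that handle galactose and repair glycation mostly fell, 9 of 11 (median -0.86). Galk1, which phosphorylates galactose as the first step of its use, rose from 29.5, 28.7, 34.5 and 31.3 CPM to 40.3, 43.8, 39.5 and 44.8 CPM, a log2 fold change of 0.44 (SE 0.11). Ugp2, a later enzyme of the path, fell by 2, Akr1b3, aldose reductase, by 0.68, and Fn3k, a kinase that removes sugars bound to proteins, by 2.49.

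Stress, clock and clearance genes gave mixed lists. Of 14 heat shock and unfolded protein genes 10 fell and 4 rose (median -1.03). Cryab, a small heat shock protein abundant in muscle, fell by 2.15 and Ddit3, a factor of the unfolded protein response, by 1.23, whereas Chac1, a target of the same response that degrades glutathione, had 15.9, 14.7, 17.8 and 16.6 CPM in Ctrl and 74.2, 90.3, 108 and 95.3 in M+NSPCC1 (2.50). Of 12 immediate early genes 10 rose and 2 fell (median 0.78). The phosphatase Dusp2 rose by 3.20 and Egr1 by 0.69, while Klf2, a factor of endothelium and lymphocytes, and Atf3 were the 2 that fell (-1.95 and -2.36). Among 10 clock genes 6 fell and 4 rose (median -1.28). Nr1d1, the nuclear receptor that represses clock genes in their daily rhythm (chromosome 11, 98767932 to 98775377), had 451, 509.8, 385 and 506 CPM in Ctrl and 85, 75.3, 50 and 63.8 in M+NSPCC1, several times lower in every treated library, with a log2 fold change of -2.76 (SE 0.24; edgeR adjusted p = 1.29e-06). The output factor Dbp fell by 1.92, and Cry1, a repressor of the clock, rose by 1.05. The sources used here do not give the hour at which the skin was taken. Autophagy and lysosome genes had 15 falls among 23 (median -0.69), with Sqstm1, the cargo receptor p62, at 689, 676, 637 and 766 CPM against 321, 322, 302 and 282 (-1.17). Of 8 apoptosis regulators 4 rose, 2 fell and 2 did not pass (median 0.24).

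Genes of several signalling pathways, in part members of the hair lists as well, were mostly higher. Of 32 Wnt genes 28 rose (median 1.21). The ligand Wnt10b, made by growing follicles, rose by 2.14 and the feedback target Axin2 by 1.52, while the ligand Wnt7b fell by 1.32. Of 22 Notch and hedgehog genes 18 rose (median 1.44). The hedgehog receptor Ptch1 and the transcription factor Gli1, both also targets of the pathway, rose by 1.90 and 2.17, and Notch1 by 1.84, whereas Dll4, a Notch ligand of vessels, fell by 1.56. In the TGF-beta and BMP list 14 of 19 rose (median 0.60). Bmp7 had 45.6, 44.6, 46.7 and 50.2 CPM in Ctrl and 117, 107, 123 and 119.9 in M+NSPCC1 (1.32, SE 0.07), Id1, a direct target of BMP signals, rose by 1.49, and Tgfbr2, the receptor of TGF-beta, fell by 1.42. Growth factor genes were divided, 9 higher and 12 lower of 24 (median -0.38), with Fgfr2, a receptor of keratinocytes, up by 1.88 and Igf1 down from 271, 270.1, 302 and 274 to 80.0, 131, 102 and 73 CPM (-1.53). Of 17 retinoid, steroid and vitamin D genes 7 rose and 9 fell (median -0.82). The nuclear receptors Esr1 and Nr3c1, for oestrogen and glucocorticoid, fell by 2.05 and 1.07.

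Counts at 0 in one group marked another set. No Ctrl library had a count for 134 tested genes, and no M+NSPCC1 library for 63, of which 123 and 55 had 1 listed transcript, so these values describe transcripts rather than whole genes. Among genes with no count in M+NSPCC1, Fam118b was at 14.6, 10.5, 13.5 and 13.5 CPM in Ctrl and at least 191-fold lower, and Osbpl6, a sterol-binding protein, at 12.4, 8.28, 8.91 and 14 CPM and at least 159.7-fold lower. Ndst1, a heparan sulphate enzyme, was at least 334-fold lower in the group sum, although Ctrl 03 was also at 0 and the groups therefore overlapped (19.9, 32.7, 0 and 38.8 CPM). Among genes that averaged 10 CPM or more, had counts in both groups and did not overlap, the deepest fall was that of Rpn2, of the glycosylation complex in the endoplasmic reticulum (26.6, 33.9, 26.2 and 27.4 CPM against 1.65, 1.95, 0 and 0, -4.98, or -5.67 without M+NSPCC1 02). Rpn2 has 1 listed transcript.

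Tmed7 and Wasl were among the 5 genes averaging 10 CPM or more whose 95% interval reached least far from 0. Tmed7, a cargo receptor of the secretory path, had 249.6, 254, 263 and 262 CPM in Ctrl and 253, 266, 259 and 252 in M+NSPCC1, with a log2 fold change of 0.003 (95% interval -0.14 to 0.14). Wasl, a regulator of actin branching, had 110.0, 108, 109.5 and 116 CPM against 109, 111, 106 and 108 (-0.033, interval -0.15 to 0.09). Both values turn with the scaling: Tmed7 was -0.156 with DESeq2's size factors, and Wasl was 0.181 with the depth of the whole libraries. Per length, in the authors' FPKM, which divides by transcript length and library depth, the most abundant listed gene in Ctrl was Acta1 at 11390 ± 419.7 FPKM, with 1942 ± 317 in M+NSPCC1, and in M+NSPCC1 it was the ribosomal protein gene Rps27 at 7559 ± 942, with 6013 ± 554 in Ctrl (SD, n = 4 each). Mup22, a major urinary protein, held 6850 ± 1661 FPKM in Ctrl and 2602 ± 1169 in M+NSPCC1, and its family of near-identical copies makes the value uncertain.

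Model and M+NSPCC1 were compared with the same 4 Ctrl libraries, so their values are set side by side and not tested against each other as changes. Model against Ctrl called 90.5% of the tested genes. List medians were 9.84 in M+NSPCC1 and 10.62 in Model for keratin-associated proteins, 5.68 and 5.56 for pigment, 2.70 and 2.53 for mitosis, -1.52 and -1.60 for fibroblasts, and -2.69 and -3.24 for contractile muscle genes. For Shh the 2 log2 fold changes were 6.49 and 5.89, for Tyr 7.66 and 7.57, for Krt10 -1.59 and -1.82, for Eln -2.29 and -2.19, and for Flg 1.12 and 0.48.

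Directly tested against Model, no gene passed in M+NSPCC1 (0%; 502 genes had an unadjusted p under 0.05, the smallest adjusted p was 0.0806, and DESeq2 called 73). Without Model 03 the count was 2, and without M+NSPCC1 01 it was 4. For 77.1% of the genes the 95% interval of this difference lay wholly within 2-fold of no difference. Flg, with 264, 324, 415 and 398 CPM in Model and 696, 459, 399 and 634 in M+NSPCC1, had a difference of 0.64 (interval 0.19 to 1.10; edgeR adjusted p = 0.605). Model 03 lay above M+NSPCC1 03, so these groups overlapped. Tent5b, a poly(A) polymerase, had 224, 254, 259 and 256 CPM in Model, 136, 168, 187 and 151 in M+NSPCC1 and 33.4, 28.6, 35 and 31.8 in Ctrl, without overlap between any of the 3 groups (-0.63 against Model, edgeR adjusted p = 0.0887). Ntn4 and Ppfibp2 had the same order. Their differences from Model, -0.66 and -0.49, did not pass, while their rises over Ctrl, 0.66 and 0.91, did. Tent5b, Ntn4 and Ppfibp2 were named because their p was among the smallest of genes lower than in Model. Among genes higher than in Model, Kcnab1, Ppp1r26, Xiap, Spen and Col22a1 had the smallest p, and none of them passed. Contractile muscle genes had a median difference from Model of 0.50 and keratin-associated proteins of -0.79, both towards Ctrl. Other lists lay further from Ctrl than Model did. Mitosis genes had a median difference from Model of 0.18, with 38 of 41 higher, and replication genes of 0.21, with 39 of 40 higher. The share of all tested genes higher than in Model was not counted. Model 03 was low in both lists. Mitosis genes held 0.254% of its counts, against 0.426% to 0.468% in the other Model libraries and 0.434% to 0.506% in M+NSPCC1. Replication genes held 0.223%, against 0.293% to 0.322% and 0.318% to 0.367%. The part of Model 03 in these differences was not tested. No member of these lists passed.

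**Figure D5:**
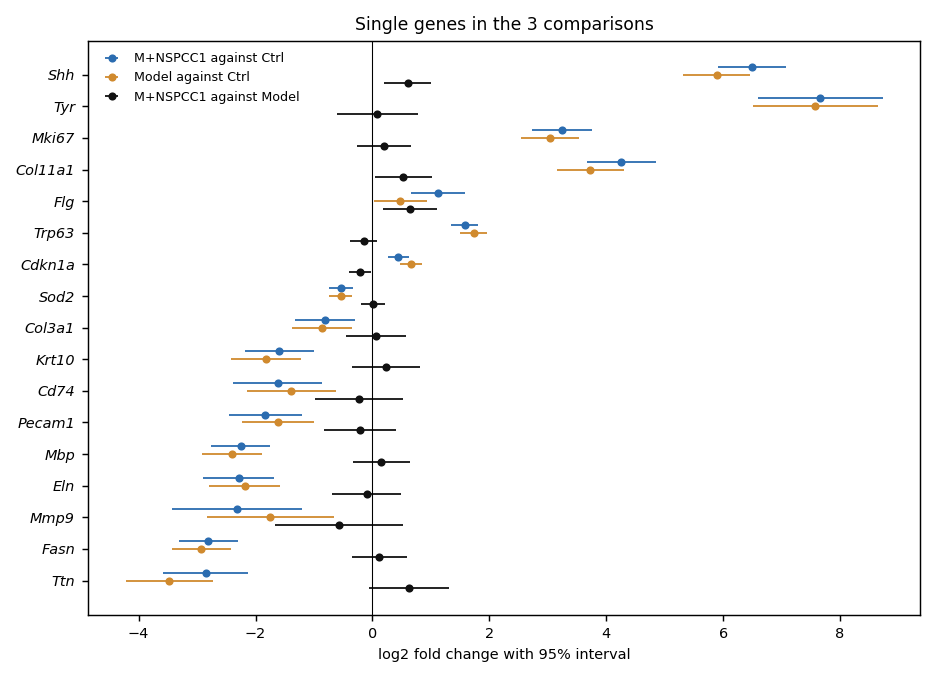
Log2 fold changes with 95% intervals (horizontal axis) of 17 named genes for M+NSPCC1 against Ctrl, Model against Ctrl and M+NSPCC1 against Model. The intervals of the third comparison lie near 0 for most genes, while the first and second, which share the Ctrl libraries, lie side by side; Flg has 1.12 in M+NSPCC1 and 0.48 in Model.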

How the data were processed

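Per the labels, RNA was extracted from skin with TRIzol and sequenced from mRNA libraries, 4 per group. Per the submitters' processing notes, which give no roles, HISAT2 2.2.1, RSEM 1.3.1 and DESeq2 1.34.0 were used with build mm10. Estimated counts per transcript were deposited by the authors for each library, and were summed by gene identifier and rounded. The authors' deposited FPKM values were used only for levels between genes and for alternatives. The deposited tables hold 10720 transcripts of 7902 genes, so library totals are totals of a selection, and scaling rests on it. Changes were fitted with edgeR 4.0.16 (R 4.3.3) on all 12 libraries with TMM factors, filterByExpr and quasi-likelihood tests with Benjamini-Hochberg adjustment over 7638 genes. In a simulation from Ctrl levels, Model was set equal to Ctrl and 7438 genes were left unchanged in M+NSPCC1. There 56 of 100 genes changed 2-fold and 21 of 100 changed 1.5-fold were called, with 1 call among the unchanged genes. In the data 93.2% of tested genes passed, and the adjusted p depends on that share, so these rates do not carry over to the data. The smallest p an exact permutation of 4 against 4 libraries allows is 0.0286. A fold against a group without counts is a bound that allows 3 counts over that group. Alternatives used DESeq2 1.42.0, limma 3.58.1, other scalings, filters and units, a replicate block and leaving out each library.

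The gene lists and the genes named were chosen with earlier results of these data known. Genes were named by size of change at a mean of at least 10 CPM, by the smallest p within each list and by the smallest p against Model. Counts at 0, level and interval were further rules. The others, including exceptions to a list's direction, were named with their values already seen. Promoter windows are those of RefSeq on GRCm38.p6. Same-numbered Ctrl and M+NSPCC1 libraries did not deviate together (Pearson's r across genes of 0.0316, 0.0439, -0.09 and 0.0325), so the numbers were not taken as pairs.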

Additional observations from a re-analysis of the deposited data

Results flagged for a closer look

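Among 510 groups of 4 libraries, one for each gene named and each list in Ctrl and in M+NSPCC1, 51 had a library whose gap to its nearest neighbour took a larger part of the group's range than the 95% critical value of Dixon's test. Chance sets about 1 in 20 groups apart in this way where values are independent and normally distributed. Here a group with counts in 1 library alone is always set apart, and genes were named with values already seen. The number of flags can therefore not be read against that rate. Ctrl 02 stood above the other 3 controls in hair genes, with 1.44 CPM for Krt33b, 96.6 for Tchh, 100.5 for Krt71, 57.9 for Krt25, 0.442 for Krtap22-2, 0.773 for Krtap14, 0.884 for Krtap16-3 and 0.221 for Krtap19-5. Keratin-associated proteins held 0.00647% of its counts, against 0.000806% to 0.0016% in the other Ctrl libraries. Ctrl 02 also stood above the others in Pkm (2352 CPM), Rpn2 (33.9 CPM) and the share of the citric acid cycle and fatty acid oxidation list (1.13%).

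M+NSPCC1 01 stood below the other 3 treated libraries in follicle genes, with 8347 CPM for Krt71, 5422 for Krt25, 111 for Krtap19-5, 111 for Krtap19-2, 141 for Lef1 and 33.1 for Hhip, and in Dusp2 (30.2 CPM). It stood above them in S100a8 (118 CPM), S100a9 (142 CPM), Has3 (60.6 CPM), Tnc (436 CPM), Mt2 (1666 CPM) and Ndufs1 (173 CPM). Its shares of counts were also the highest for nerve genes (0.0807%), for B cells, mast cells and neutrophils (0.0481%) and for immediate early genes (0.236%, against 0.173% to 0.18% in the other 3).

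Other libraries stood apart in a few genes and lists. Ctrl 01 was above the other controls in Trp63 (172 CPM), Gpx3 (3953 CPM), Slc7a11 (2.43 CPM) and Fgfr2 (49.4 CPM). Ctrl 03 was above them in Krt17 (801 CPM), Has3 (25.7 CPM), Cemip (2.04 CPM) and Igf1 (302 CPM), and below them in Mycn (0.966 CPM). Ctrl 04 was above them in Cdkn1a (409.5 CPM), Trp53 (95.1 CPM), Cdh3 (23.9 CPM), Atf3 (109 CPM) and the share of heat shock genes (0.548%), and below them in E2f1 (24.2 CPM). M+NSPCC1 02 was above the other treated libraries in C3 (804 CPM) and Gpx3 (1466 CPM), and below them in Fabp5 (1710.0 CPM) and Slc7a11 (30.5 CPM). M+NSPCC1 03 was below them in Cryab (140.5 CPM) and Rps27 (594 CPM). M+NSPCC1 04 was below them in Phlda3 (186 CPM), and above them in the share of dermal papilla genes (0.0706%).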

How the results depend on the processing

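The 3826 higher and 3291 lower genes became 1285 and 1599 when a change of more than 2-fold was tested. The other alternatives, with counts of 3234 to 4215 higher and 2972 to 3379 lower genes, stayed within 1.5 times, as did the fit to transcripts, chosen after seeing the data (5151 and 4495). Leaving out each of the 8 libraries gave 3682 to 3743 higher and 3243 to 3278 lower genes. Of the calls, 6525 were shared in direction with DESeq2's size factors and 7020 with whole-library depth, a scaling chosen after seeing the data. The share of calls that were higher was 53.8%, 49.3% with DESeq2's size factors and 56.9% with whole-library depth. The 0 genes that differed between M+NSPCC1 and Model became 73 with DESeq2's test and 2 in a fit to those 8 libraries alone, and 0 to 4 when a library was left out; the cause was not tested.

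With the replicate number as a block, 3771 genes were higher and 3256 lower, 6986 calls were shared, and 0 genes differed from Model. The block is not a pairing by animal, and no Ctrl library but Ctrl 01 correlated best with its own number.

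Of 54 list medians 51 kept their sign in every alternative fitted to genes. That of inflammatory cytokines turned to 0.090 and 0.203 with limma on log2(FPKM + 1) and log2(FPKM + 0.1), that of growth factor pathways to 0.325 and 0.403, and that of the proteasome to -0.075 with DESeq2's size factors and its test. Tmed7 turned to -0.156 with both DESeq2 alternatives, and Wasl to 0.171 and 0.181 with the limma alternatives and 0.181 with whole-library depth. The cause was not tested. Sizes moved more than signs: 211 of 972 list medians under an alternative kept their sign but moved by more than the SD between libraries. With limma on log2(FPKM + 1), whose added 1 lowers the change of low genes, the medians were 8.72 for hair shaft, 7.52 for keratin-associated proteins, 2.73 for pigment, 1.07 for dermal papilla, -1.09 for nerve and -1.02 for interferon-stimulated genes, and the log2 fold changes were 3.89 for Shh, 2.19 for Fgf5 and 0.804 for Cemip. Of 201 named genes 144 kept call and direction in every alternative fitted to genes. The fit to transcripts was not part of these checks. Among 3606 pairs of a named gene and an alternative, 52 lost the call, 47 of them at the 2-fold threshold. A call was gained in 29 pairs, and 5 pairs turned direction. Krt5 passed in a fit to the 8 Ctrl and M+NSPCC1 libraries alone (0.467, edgeR adjusted p = 0.017). That fit, without Model, also called Ciita, Krtap20-2, Kif23 and Bgn (edgeR adjusted p = 0.00175, 0.00252, 0.0162 and 0.0216). None of these genes passed in the fit to all 12 libraries. Depth limits the genes at 0 in a group, whose values are bounds.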
